A study of Mus musculus with 24 samples.

Results

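The genes described here are the plasma selenium carrier selenoprotein P (Sepp1) and 9 enzymes and small proteins that also contain selenocysteine: the glutathione peroxidases Gpx1, Gpx2, Gpx3 and Gpx4, the thioredoxin reductases Txnrd1 and Txnrd2, selenoprotein W (Sepw1), the deiodinase Dio1 and selenophosphate synthetase Sephs2. All 10 symbols were found among the 25410 symbols of the deposited tables, and all 10 were among the 20006 genes kept for testing. The family was picked because Sepp1 differed by diet after 1,25-dihydroxyvitamin D3 in these same libraries. The contrast of the rescue with the normal diet after the hormone, and any contrast that contains it, is therefore given for these genes as a description with no test.

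RNA sequencing measured the duodenum of male Cyp27b1 null mice, which lack the enzyme that makes 1,25-dihydroxyvitamin D3 (1,25D), the active vitamin D hormone. Rescue 1,25D mice ate a diet with 2% calcium, 1.25% phosphorus and 20% lactose and received 1,25D at 2 ng per g body weight. Rescue vehicle mice ate that diet and received vehicle. Normal 1,25D mice ate a diet with 0.47% calcium and 0.3% phosphorus and received the same dose of 1,25D, and normal vehicle mice ate this second diet and received vehicle. Both diets lacked vitamin D and were fed from weaning to 8 weeks of age, and RNA was taken 6 hours after the injection. There were 6 libraries in each of 4 groups. No label says which animal a library came from, so a p-value here measures only how far libraries of a group spread, which may be technical. All groups carry the null allele, so there was no mouse with its own 1,25D to compare with.

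Selenoproteins carry selenocysteine, an amino acid placed at a UGA codon that would otherwise stop translation. Selenoprotein P is secreted, mostly by the liver, carries many selenocysteines and delivers selenium to other organs. The other proteins hold a single selenocysteine at the active site: glutathione peroxidases reduce peroxides with glutathione, thioredoxin reductases keep thioredoxin reduced, and deiodinases remove iodine from thyroid hormones. Gpx2 is the form known for the epithelium of the gut. Sephs2 is itself a selenoprotein and makes the selenium donor from which selenocysteine is built.

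The codon that defines the family follows for the genes whose values the results turn on, because all 10 transcripts carry it. Sequences are the coding strand of mouse transcripts in GENCODE M21 (GRCm38), 5′ to 3′, with up to 12 bases on either side and never past the stop codon. The capitals mark selenocysteine codons. The first 2 lines are the first and the eighth of the 10 such codons of Sepp1, at codons 59 and 368 of 380, and the second of them also holds the seventh, at codon 366. The other lines stand for Dio1 at codon 126, Gpx1 at codon 47, Gpx2 at codon 40, Gpx4 at codon 129, Txnrd1 at codon 612 of 613 and Txnrd2 at codon 526 of 527.
Sepp1, first: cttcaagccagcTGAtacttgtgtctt
Sepp1, eighth: cccaacTGAagcTGAgataatcagacc
Dio1: ggcagttgcaccTGAccttcatttctt
Gpx1: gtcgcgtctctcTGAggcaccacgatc
Gpx2: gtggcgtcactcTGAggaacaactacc
Gpx4: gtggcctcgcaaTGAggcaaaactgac
Txnrd1: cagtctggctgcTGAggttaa
Txnrd2: gtgactggttgcTGAggctaa

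Gpx1 and Gpx2 had the same base at 21 of 27 positions of this window, and Gpx2 and Gpx4 at 19 of 27, the codon included. Txnrd1 and Txnrd2 shared 16 of 21 positions, and in both the selenocysteine was the last residue but one. The window of Dio1 matched the first window of Sepp1 at 12 of 27 positions, the codon included, fewer than the 15 of 27 for Gpx1 and Sephs2. Sepp1 (Selenop in GENCODE) lies on chromosome 15, Dio1 on chromosome 4, Gpx1 on chromosome 9, Gpx2 on chromosome 12, Gpx4 and Txnrd1 on chromosome 10 and Txnrd2 on chromosome 16.

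The values are RPKM, reads scaled to the length of the feature and the size of the library, as the authors deposited them. Summed RPKM per library lay between 541395 and 697913, and the absolute depth is unknown. From the steps between low values, the deepest library (normal vehicle replicate 6) was estimated to have 2.76 times as many reads as rescue 1,25D replicate 4, the library with the fewest. Cyp24a1, the vitamin D hydroxylase used here as a check of the injection, averaged 473 ± 299 RPKM in rescue 1,25D, 0.284 ± 0.285 RPKM in rescue vehicle, 724 ± 219 RPKM in normal 1,25D and 1.08 ± 1.46 RPKM in normal vehicle libraries (SD, n = 6 each). Its level was at least 92.1 RPKM in each of the 12 libraries labelled 1,25D and at most 4.03 RPKM in each library labelled vehicle. Transcripts of the deleted gene Cyp27b1 were at or under 0.452 RPKM in every library.

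Several of the genes stood in more than 1 row of each table, and this bears on how they can be read. Sepp1 had 3 rows. In 19 libraries all 3 were above 0 in a fixed ratio, with row 2 at 1.033 times and row 3 at 1.041 times row 1, and in the other 5 libraries the whole value stood in 1 row. Those 5 are rescue 1,25D replicates 2 and 4, rescue vehicle replicate 1, normal 1,25D replicate 2 and normal vehicle replicate 2. Gpx3 had 2 rows, with 1 of them at 0 in 6 libraries, Gpx4 had 2 rows, with 1 of them at 0 in 8 libraries, and Txnrd1 had 4 rows, of which 2 held between 99.4% and 99.9% of the value. The rows of a symbol were summed in every library, so the levels below do not tell isoforms apart.

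**Figure D1:**
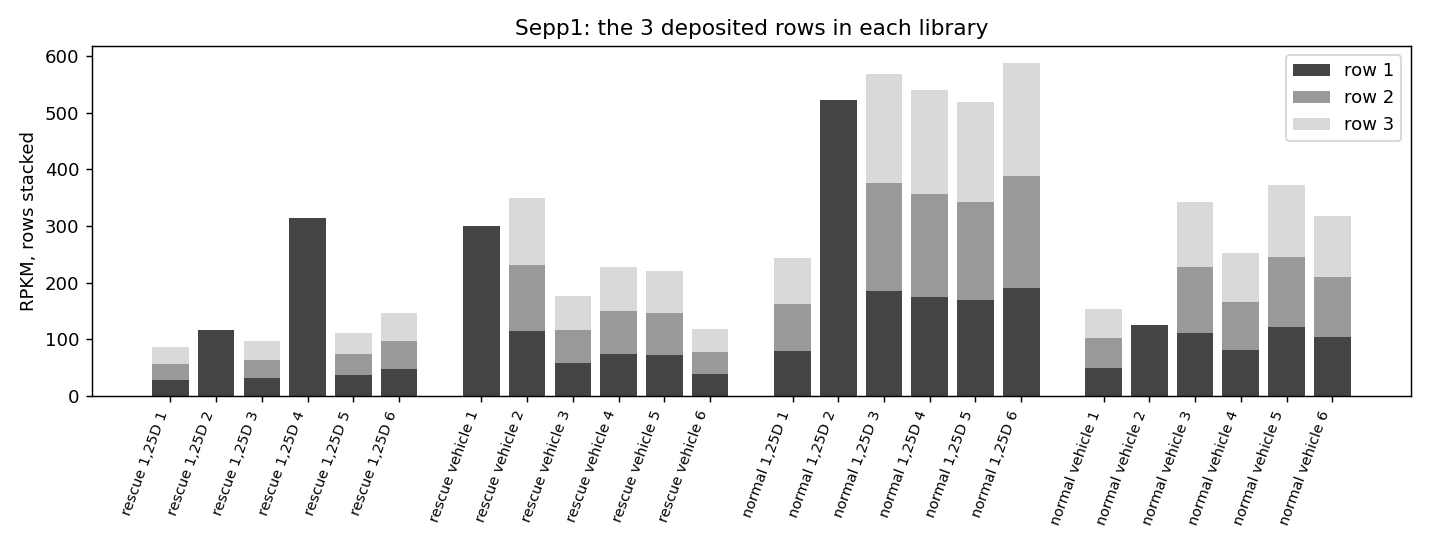
RPKM of Sepp1 in each of the 24 libraries, with the 3 deposited rows stacked (vertical axis, RPKM; horizontal axis, library by group and replicate). In 19 libraries the rows share the value almost equally and in 5 libraries 1 row holds it all, with totals between 85.9 and 588 RPKM.

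The 10 genes differed widely in their level per length. Averaged over the 24 libraries, Gpx1 stood at 419 RPKM, Sepp1 at 284 RPKM, Sephs2 at 148 RPKM and Txnrd1 at 114 RPKM, above the mean of at least 97.8% of all symbols. Gpx2 followed at 34.1 RPKM, Gpx4 at 22.4 RPKM, Dio1 at 16.3 RPKM and Gpx3 at 11.6 RPKM. Sepw1 and Txnrd2 were low, at 2.00 and 1.79 RPKM. Neighbours in this order were not always apart: Gpx1 was above Sepp1 in 18 of 24 libraries and Sepw1 above Txnrd2 in 14 of 24, whereas Txnrd1 was above Gpx2 and Gpx3 above Sepw1 in all 24. Over all libraries Sephs2 varied least, with its highest value 1.79 times its lowest. Dio1, Gpx2 and Sepp1 varied most, by factors of 7.64, 6.98 and 6.85.

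**Figure D2:**
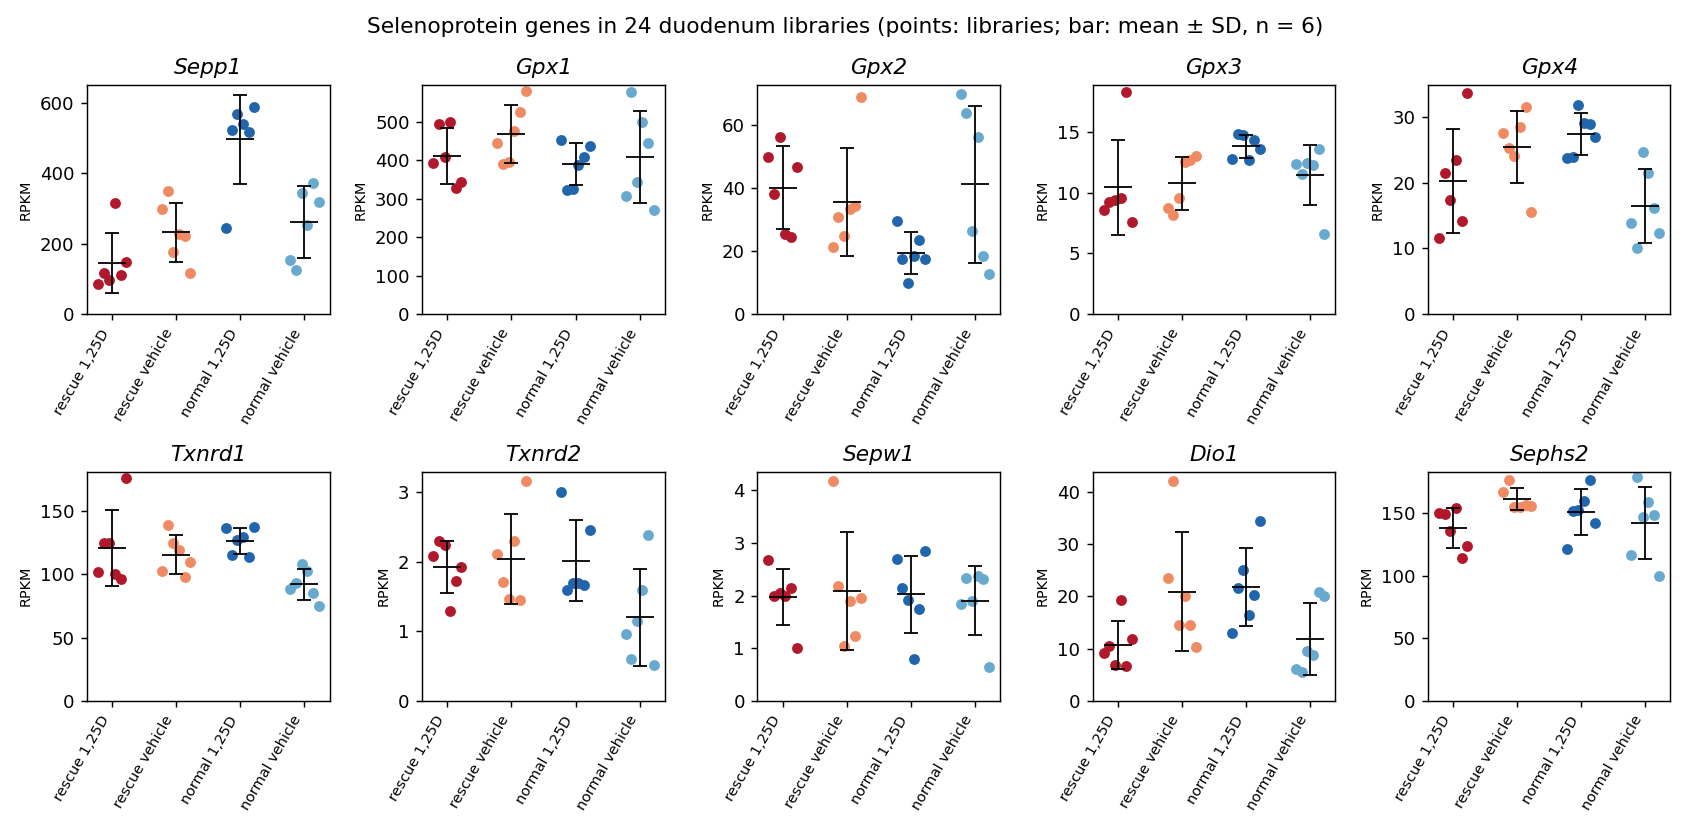
RPKM of each of the 10 genes in the 24 libraries (points), by group, with the group mean and SD (bar and whiskers, n = 6). Sepp1 has its lowest mean in rescue 1,25D libraries (145 RPKM) and its highest in normal 1,25D libraries (497 RPKM). Dio1 is low in rescue 1,25D and normal vehicle libraries (means of 10.7 and 11.8 RPKM). It is high in rescue vehicle and normal 1,25D libraries (20.9 and 21.8 RPKM), while Gpx1 and Sephs2 stay within narrow bands.

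Sepp1 had less transcript after 1,25D in mice on the rescue diet than in mice on the normal diet. The lowest, median and highest values were 85.9, 114 and 315 RPKM in rescue 1,25D libraries, against 244, 531 and 588 RPKM in normal 1,25D libraries. Of the 6 rescue libraries 5 lay below every normal library, and the groups met only through rescue replicate 4, at 315 RPKM, and normal replicate 1, at 244 RPKM. Means were 145 ± 85.5 RPKM in rescue 1,25D and 497 ± 127 RPKM in normal 1,25D libraries (SD, n = 6 each). On the log2(RPKM + 0.5) scale used for every change below, the difference was -1.87 (SE 0.32), which is 3.64-fold lower in the rescue group. Without the 5 libraries that hold Sepp1 in 1 row it was -2.11 (SE 0.31). This contrast chose the family, so nothing about its members is read from its calls. Across all genes 2 of 20006, a share of 0.0100%, had an adjusted p under 0.05 in it. That count lay between 0 and 14 when single libraries were left out and was 0 with only the 12 libraries compared. With array weights it was far higher, as given in the last section.

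The vehicle libraries, which played no part in the choice, did not separate the diets for Sepp1. Its lowest, median and highest values were 118, 225 and 350 RPKM in rescue vehicle libraries and 125, 285 and 372 RPKM in normal vehicle libraries. Both groups covered nearly the same range. The log2 difference was -0.14 (SE 0.32, 95% interval from -0.79 to 0.52), with an adjusted p of 0.961 in limma, and it was -0.42 (SE 0.29) without the libraries that hold Sepp1 in 1 row. The interval leaves room for a difference of either sign.

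Between injections, Sepp1 ran opposite ways on the 2 diets. On the rescue diet it averaged 145 ± 85.5 RPKM after 1,25D and 232 ± 83.4 RPKM after vehicle, a log2 difference of -0.74 (SE 0.32), and 4 of 6 libraries with 1,25D lay below all 6 with vehicle. On the normal diet it averaged 497 ± 127 RPKM after 1,25D and 261 ± 102 RPKM after vehicle, a log2 difference of 0.99 (SE 0.32), and 5 of 6 libraries with 1,25D lay above all 6 with vehicle. Over both diets the difference was 0.12 on the log2 scale, and -0.08 without the libraries that hold Sepp1 in 1 row. The effect of 1,25D on the rescue diet minus that on the normal diet was -1.73 (SE 0.45). The 1,25D libraries were used to choose Sepp1, so these are descriptions, and each of them shares libraries with the diet contrast above.

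Dio1, which removes iodine from thyroid hormones, differed in the same direction as Sepp1 between injections on each diet and between the diets after 1,25D. Its lowest, median and highest values were 6.67, 9.80 and 19.3 RPKM in rescue 1,25D, 10.2, 17.3 and 42.1 RPKM in rescue vehicle, 13.1, 21.0 and 34.4 RPKM in normal 1,25D and 5.50, 9.18 and 20.9 RPKM in normal vehicle libraries. Rescue 1,25D and normal vehicle libraries were the low groups, and 5 of 6 rescue 1,25D libraries lay below every normal 1,25D library. After 1,25D the log2 difference between rescue and normal diet was -1.02 (SE 0.34), and the diets' 1,25D effects differed by -1.85 (SE 0.48), both given without a test. The tested comparisons did not call Dio1. Limma's log2 change with 1,25D was -0.87 (SE 0.34) on the rescue diet, with an adjusted p of 0.878, and 0.98 (SE 0.34) on the normal diet, with an adjusted p of 0.158. Under vehicle, rescue libraries differed from normal ones by 0.83 (SE 0.34), with an adjusted p of 0.643. The same difference for Sepp1 had the other sign, at -0.14 (SE 0.32).

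Gpx2, the gastrointestinal glutathione peroxidase, stood on the other side from Sepp1 after 1,25D, higher on the rescue than on the normal diet. Its lowest, median and highest values were 24.6, 42.6 and 56.1 RPKM in rescue 1,25D libraries, against 10.01, 18.0 and 29.5 RPKM in normal 1,25D libraries. After 1,25D, 4 of 6 rescue libraries were above all normal libraries, and the log2 difference was 1.03 (SE 0.36), given without a test. Vehicle libraries were wide and overlapping, at 21.2 to 69.0 RPKM on the rescue and 12.7 to 69.8 RPKM on the normal diet. On the normal diet the log2 change with 1,25D was -0.87 (SE 0.36), with all 6 libraries below the vehicle median and an adjusted p of 0.287 in limma. On the rescue diet it was 0.22 (SE 0.36), with an adjusted p of 0.916.

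Gpx4, which reduces lipid peroxides within membranes, had its lowest median in normal vehicle libraries. The lowest, median and highest values were 11.6, 19.5 and 33.8 RPKM in rescue 1,25D, 15.5, 26.5 and 31.5 RPKM in rescue vehicle, 23.8, 28.0 and 31.9 RPKM in normal 1,25D and 10.2, 15.1 and 24.8 RPKM in normal vehicle libraries. On the normal diet, 4 of 6 libraries with 1,25D were above all with vehicle. Limma gave a log2 change of 0.78 (SE 0.22) and an adjusted p of 0.0714, which missed the threshold. The call depends on the libraries in the fit: the adjusted p was 0.0388 with only the 12 libraries compared, and it lay between 0.0285 and 0.174 when single libraries were left out and reached 0.265 under the other settings. Taking only the row with the highest mean in place of the sum gave a log2 change of 2.42 (SE 0.68), with an adjusted p of 0.0713. That row was at 0 in normal vehicle replicates 1 and 5, where the other row held the whole value. A change from that row against normal vehicle libraries therefore also depends on which row holds the value. Rescue vehicle against normal vehicle libraries gave 0.64 (SE 0.22) on the log2 scale, with an adjusted p of 0.58, and 2.41 from the row with the highest mean alone.

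Gpx1, the cytosolic glutathione peroxidase, and Gpx3, the form secreted into plasma, showed small differences. Gpx1 averaged 411 ± 72.7 RPKM in rescue 1,25D, 468 ± 74.7 RPKM in rescue vehicle, 389 ± 54.9 RPKM in normal 1,25D and 407 ± 120 RPKM in normal vehicle libraries (SD, n = 6 each), and every pair of groups overlapped. The largest tested log2 change of Gpx1 was 0.24 (SE 0.18), for rescue against normal diet under vehicle, with an adjusted p of 0.804. Gpx3 averaged 10.4 ± 3.91 RPKM in rescue 1,25D, 10.8 ± 2.18 RPKM in rescue vehicle, 13.8 ± 0.949 RPKM in normal 1,25D and 11.5 ± 2.47 RPKM in normal vehicle libraries (SD, n = 6 each). After 1,25D, 5 of 6 rescue libraries had less Gpx3 than all normal libraries, and the sixth, replicate 5 at 18.3 RPKM, had more than all of them. That log2 difference was -0.45 (SE 0.18), without a test, and the 1,25D change on the normal diet was 0.29 (SE 0.18), with an adjusted p of 0.616. Taking only the row with the highest mean turned that change to -0.04 (SE 0.26), and turned the 1,25D change on the rescue diet, -0.08 (SE 0.18) from the sum, to 0.24 (SE 0.26). That row held the whole value in 6 libraries and 48.8% of it in the others, so these changes also depend on which row holds the value.

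The thioredoxin reductases Txnrd1, the cytosolic enzyme, and Txnrd2, the mitochondrial one, were lowest in normal vehicle libraries. Txnrd1 had a lowest, median and highest value of 113, 128 and 138 RPKM in normal 1,25D libraries, against 74.6, 90.6 and 108 RPKM in normal vehicle libraries. These groups did not overlap, but how many of all genes separate them was not counted. The log2 change was 0.46 (SE 0.13), with an adjusted p of 0.0701 in limma, which missed the threshold. It lay between 0.0235 and 0.162 when single libraries were left out and between 0.0572 and 0.482 under the other settings, and quantile normalization gave a log2 change of 0.27. The value of 0.0235 came without rescue 1,25D replicate 6, which enters this comparison only through the shared estimate of the spread and whose Txnrd1 value of 176 RPKM was far above its group. On the rescue diet the ranges were 96.6 to 176 RPKM after 1,25D and 97.9 to 139 RPKM after vehicle, with a log2 change of 0.04 (SE 0.13) and an adjusted p of 0.955. Under vehicle, rescue libraries differed from normal libraries by 0.33 (SE 0.13), with an adjusted p of 0.641, and 4 of 6 were above all normal libraries.

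Txnrd2 averaged 1.93 ± 0.374 RPKM in rescue 1,25D, 2.03 ± 0.648 RPKM in rescue vehicle, 2.01 ± 0.578 RPKM in normal 1,25D and 1.20 ± 0.698 RPKM in normal vehicle libraries (SD, n = 6 each). Normal vehicle libraries had the lowest mean, and they overlapped each other group. Its log2 change with 1,25D on the normal diet was 0.63 (SE 0.23), with an adjusted p of 0.183 in limma. The adjusted p lay between 0.0456, without normal vehicle replicate 5, and 0.356 when single libraries were left out, and between 0.152 and 0.425 under the other settings. The diet difference under vehicle was 0.64 (SE 0.23), with an adjusted p of 0.591. On the rescue diet the change with 1,25D was -0.04 (SE 0.23).

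Sephs2 was the steadiest of the 10 genes. It averaged 138 ± 16.0 RPKM in rescue 1,25D, 161 ± 8.80 RPKM in rescue vehicle, 151 ± 18.4 RPKM in normal 1,25D and 142 ± 28.8 RPKM in normal vehicle libraries (SD, n = 6 each). On the rescue diet the libraries with 1,25D lay at 114 to 154 RPKM and those with vehicle at 155 to 176 RPKM. The nearest values of these groups were 154.17 and 154.97 RPKM, and the share of all genes that separate them was not counted. The log2 change was -0.23 (SE 0.13), with an adjusted p of 0.878 in limma. Sepw1, a small redox protein, averaged between 1.90 and 2.09 RPKM in the 4 groups, and its log2 changes in the tested comparisons were at most 0.07 in size, each with an SE of 0.27 for a single diet or injection.

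**Figure D3:**
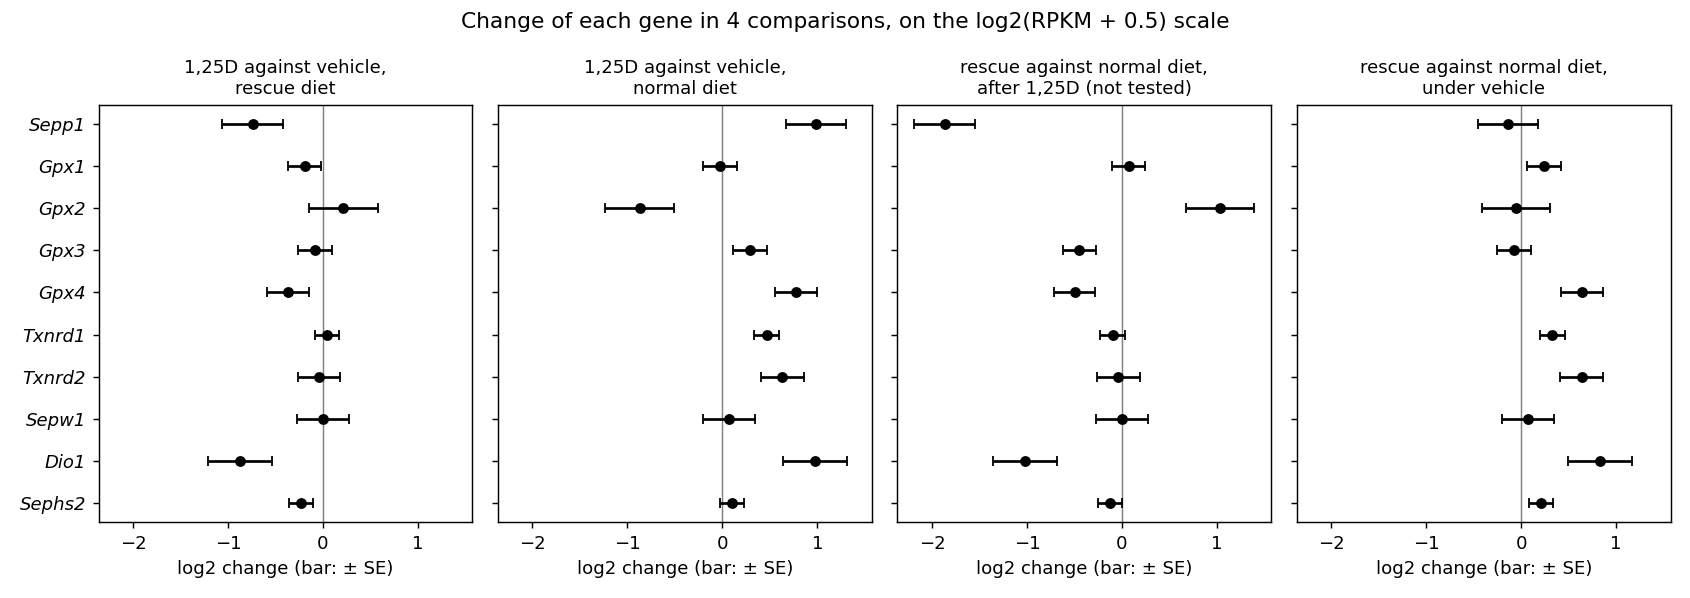
Change of each gene in 4 comparisons on the log2(RPKM + 0.5) scale (points) with its SE (bars), from a fit of all 24 libraries. Sepp1 and Dio1 lie below 0 with 1,25D on the rescue diet (-0.74 and -0.87), above 0 with 1,25D on the normal diet (0.99 and 0.98) and furthest below 0 for rescue against normal diet after 1,25D (-1.87 and -1.02), a panel with no test.

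Counted over the family, no tested comparison called a member at an adjusted p under 0.05. For 1,25D against vehicle on the normal diet, limma called 0 of the 9 members other than Sepp1, where 1.84% of all 20006 genes were called. At an unadjusted p under 0.05 the count was 5 of 9, with Gpx4, Txnrd1, Txnrd2 and Dio1 higher and Gpx2 lower, against 12.0% of all genes (9.74% higher and 2.22% lower). On the rescue diet 0 of 9 were called, against 0.145% of genes, and 1 of 9, Dio1, had an unadjusted p under 0.05, against 4.83%. Over both diets 0 of 9 were called, against 1.28%, and 1 of 9, Txnrd1, had an unadjusted p under 0.05, against 9.78%. For rescue against normal diet under vehicle 0 of 10 members and 0% of genes were called, and 4 of 10 members, all higher, had an unadjusted p under 0.05, against 7.18% of genes in either direction and 6.58% higher. The median log2 change of the tested members was 0.29 with 1,25D on the normal diet, -0.08 with 1,25D on the rescue diet, 0.05 over both diets and 0.22 for the diets under vehicle. The same medians over all genes were 0.05, 0.06, 0.07 and 0.10. The comparison of 1,25D with vehicle on the normal diet and that of the diets under vehicle share the normal vehicle libraries, so a low value there enters both. Each comparison of 1,25D with vehicle uses 1,25D libraries by which Sepp1 was chosen. Dio1, Gpx2 and Gpx4 varied with Sepp1 across libraries, so their p-values and these counts are not independent of that choice.

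Some cell type markers also differed between the groups. The 12 enterocyte markers, such as Vil1, Fabp2, Sis and Apoa4, were all detected, and their summed level had a lowest, median and highest value of 1710, 4120 and 8800 RPKM in rescue 1,25D, 2240, 6730 and 11200 RPKM in rescue vehicle, 6340, 8940 and 12300 RPKM in normal 1,25D and 2400, 4370 and 5790 RPKM in normal vehicle libraries. Normal 1,25D libraries were high, as they were for Sepp1, and the 7 crypt markers were lowest there, at 312 to 531 RPKM, with 390 to 808 RPKM in rescue 1,25D, 494 to 1230 RPKM in rescue vehicle and 353 to 763 RPKM in normal vehicle libraries. In bulk tissue, fewer cells of a type and less RNA per cell cannot be told apart. Sepp1 as a share of the enterocyte sum lay between 1.67% and 6.53% in rescue 1,25D, 2.84% and 5.25% in rescue vehicle, 3.85% and 7.09% in normal 1,25D and 5.18% and 8.24% in normal vehicle libraries. The part of these markers in the differences above was not tested.

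Markers of other possible sources of Sepp1 were read as well. The 13 macrophage and monocyte markers were all detected, with sums of 101 to 288 RPKM in rescue 1,25D, 93.0 to 234 RPKM in rescue vehicle, 140 to 211 RPKM in normal 1,25D and 89.3 to 184 RPKM in normal vehicle libraries. The hepatocyte markers Alb, Serpina1a, Apob, Ttr, Cyp2e1, Apoh and Trf passed the filter on low values. Tat, Ahsg, Fgb, Hpx and F2 did not. Of all 12 hepatocyte markers, 6 were above 0.5 RPKM in at least 12 libraries, and some of those, such as Apob, are also made by enterocytes. Their sums, with a lowest, median and highest value of 141, 322 and 766 RPKM in rescue 1,25D, 224, 474 and 621 RPKM in rescue vehicle, 446, 693 and 793 RPKM in normal 1,25D and 194, 388 and 544 RPKM in normal vehicle libraries, were highest in normal 1,25D libraries, as Sepp1 was. Their part in the differences of Sepp1 was not tested.

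Of the 17 marker lists, 2 separated rescue 1,25D from normal 1,25D libraries without overlap, both lower in the rescue group. These are the libraries by which Sepp1 was chosen, and the share of all genes that separate them was not counted. The 8 T cell and intraepithelial lymphocyte markers summed to between 11.5 and 31.4 RPKM in rescue 1,25D, against 32.7 and 50.5 RPKM in normal 1,25D libraries, with 14.3 to 52.1 RPKM in rescue vehicle and 18.7 to 37.6 RPKM in normal vehicle libraries. The 7 enteroendocrine markers summed to between 96.9 and 176 RPKM in rescue 1,25D, against 186 and 249 RPKM in normal 1,25D libraries, with 157 to 194 RPKM in rescue vehicle and 115 to 228 RPKM in normal vehicle libraries. Their part in the difference of Sepp1 was not tested. Exocrine pancreas markers varied most, and 13 of 14 were above 0.5 RPKM in at least 12 libraries. They summed to between 31.9 and 27200 RPKM in rescue 1,25D, 42.2 and 11600 RPKM in rescue vehicle, 28.1 and 16200 RPKM in normal 1,25D and 2040 and 79600 RPKM in normal vehicle libraries. Normal vehicle libraries, where Gpx4, Txnrd1 and Txnrd2 were lowest, had the highest median, 13400 RPKM. The part of the pancreas markers in those differences was not tested.

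**Figure D4:**
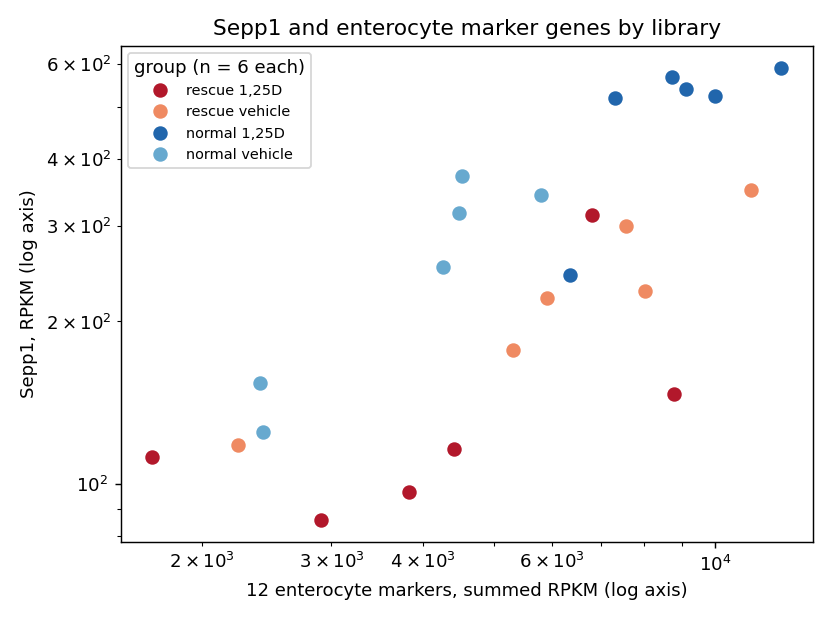
Sepp1 (vertical axis, RPKM, log axis) against the summed RPKM of 12 enterocyte markers (horizontal axis, log axis) in each of the 24 libraries, coloured by group. Normal 1,25D libraries sit at the upper right, apart from replicate 1, with 244 RPKM of Sepp1 at a marker sum of 6340 RPKM. Rescue 1,25D libraries have the lowest median of Sepp1, 114 RPKM, while spanning marker sums of 1710 to 8800 RPKM.

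Across the 24 libraries Dio1 and Gpx2 followed Sepp1 most closely within the family, in opposite directions. On log2(RPKM + 0.5), Pearson's r with Sepp1 was 0.77 for Dio1 (Spearman's rho 0.78), -0.77 for Gpx2 (rho -0.76) and 0.56 for Gpx4 (rho 0.52). With the group means removed, r was 0.85 for Dio1, -0.71 for Gpx2 and 0.60 for Gpx4. Without the 2 libraries farthest from the median of Sepp1, rescue 1,25D replicates 1 and 3, r was 0.75, -0.74 and 0.48. The other members had r between -0.23 (Gpx1) and 0.27 (Gpx3). The summed enterocyte markers had an r of 0.76 with Sepp1 and the summed crypt markers an r of -0.59. For the macrophage and monocyte markers r was -0.25, and -0.54 with the group means removed. For the smooth muscle markers it was -0.41 and for the exocrine pancreas markers -0.14. These values describe how the libraries differ from each other. The libraries fall into 4 groups and share their makeup of cells, so no p is given.

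Among 8845 genes with a mean of at least 5 RPKM, those whose values were most like Sepp1 over the 24 libraries were Cat, Cyp4v3, Sord, Guca2b and Phyh. Cat, the peroxisomal catalase, had an r of 0.92 and 0.90 with group means removed. Cyp4v3, a cytochrome P450, had an r of 0.91 (0.93 with group means removed). Sord, sorbitol dehydrogenase, had an r of 0.86 (0.77), Guca2b, the hormone uroguanylin, 0.85 (0.82), and Phyh, which starts the peroxisomal breakdown of phytanic acid, 0.85 (0.83). Cat averaged 28.4 ± 7.58 RPKM in rescue 1,25D, 35.4 ± 7.25 RPKM in rescue vehicle, 49.0 ± 4.61 RPKM in normal 1,25D and 31.1 ± 7.36 RPKM in normal vehicle libraries (SD, n = 6 each). Normal 1,25D libraries, at 44.0 to 55.9 RPKM, were above all rescue 1,25D libraries, at 21.9 to 43.2 RPKM, and above all normal vehicle libraries, at 22.8 to 42.9 RPKM. Cat was picked for its likeness to Sepp1, and no count was made of other genes that separate these groups.

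Of 8 lists of genes related to the family, 2 held genes that passed the test, both for 1,25D on the normal diet, where 1.78% of all genes were called higher. Among 14 thioredoxins, peroxiredoxins and other peroxide enzymes 2 rose and 0 fell: Cat, with a log2 change of 0.67 (SE 0.16, adjusted p = 0.0248), and Srxn1, which repairs overoxidised peroxiredoxins, with 0.92 (SE 0.23, adjusted p = 0.0377). Among 14 NRF2 regulators and targets 2 rose and 0 fell, Srxn1 again and Abcc2, an export pump for glutathione conjugates, with 1.28 (SE 0.32, adjusted p = 0.0374). Srxn1 averaged 55.3 ± 8.09 RPKM in normal 1,25D and 29.5 ± 7.71 RPKM in normal vehicle libraries, and Abcc2 79.5 ± 11.1 RPKM in normal 1,25D and 34.7 ± 13.4 RPKM in normal vehicle libraries (SD, n = 6 each). With quantile normalization none of these 3 genes was called, at adjusted p-values of 0.182 for Cat, 0.0982 for Srxn1 and 0.107 for Abcc2. The medians of the 2 lists were 0.15 and 0.27 on the log2 scale, beside 0.05 over all genes. Cat was the gene most like Sepp1, and normal 1,25D libraries were used to choose Sepp1. The call of Cat is therefore not independent of that choice. The lists themselves were chosen with earlier results of these data known, so their counts beside the share of all genes are no independent comparison.

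The genes with the smallest p of these 2 lists in the other comparisons did not pass. With 1,25D on the rescue diet, Txnip, an inhibitor of thioredoxin, had a log2 change of -0.67 (SE 0.27, adjusted p = 0.878), and Nqo1, a quinone reductase, one of -0.46 (SE 0.20, adjusted p = 0.878). Txnip averaged 120 ± 45.0 RPKM in rescue 1,25D and 192 ± 71.9 RPKM in rescue vehicle libraries (SD, n = 6 each). Over both diets the smallest p of each list was that of Srxn1, with a log2 change of 0.57 (SE 0.17, adjusted p = 0.101). Under vehicle, the peroxiredoxin Prdx2 differed by 0.37 (SE 0.12, adjusted p = 0.567) and the glutathione transferase Gsta4 by 0.72 (SE 0.32, adjusted p = 0.677) between rescue and normal diet.

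The selenium machinery around the family held no gene that limma called in the 4 tested comparisons. For the counts of smaller p-values that follow, 12.0% of all genes had an unadjusted p under 0.05 for 1,25D on the normal diet (9.74% higher), 4.83% on the rescue diet, 9.78% over both diets and 7.18% for the diets under vehicle. Of 14 other selenoproteins 12 were found and 11 tested, and limma called none. The count at an unadjusted p under 0.05 was 1 for 1,25D on the normal diet and 0 in the other 3 comparisons. Ept1, an ethanolamine phosphotransferase, had the smallest p on the normal diet, with a log2 change of 0.67 (SE 0.25) and an adjusted p of 0.225, and it also had the smallest p over both diets, at 0.37 (SE 0.18, adjusted p = 0.512). Dio2, the deiodinase that activates thyroid hormone, had the smallest p on the rescue diet, at 0.33 (SE 0.19, adjusted p = 0.878). Its level was near the pseudocount, with means of 0.978 RPKM in rescue 1,25D and 0.654 RPKM in rescue vehicle libraries. Under vehicle the smallest p was that of 2700094K13Rik, the row of selenoprotein H, at 0.46 (SE 0.22, adjusted p = 0.691). The 11 genes of selenocysteine synthesis and insertion were tested without a call, and 3 of 11 had an unadjusted p under 0.05 for 1,25D on the normal diet, all higher, with 1 on the rescue diet, 2 over both diets and 2 for the diets under vehicle. Sepsecs, which makes selenocysteine on its transfer RNA, averaged 29.5 ± 3.27 RPKM in normal 1,25D and 23.1 ± 4.98 RPKM in normal vehicle libraries, a log2 change of 0.37 (SE 0.11, adjusted p = 0.106). Under vehicle, Sepsecs differed by 0.32 (SE 0.11, adjusted p = 0.591) between rescue and normal diet. Secisbp2l, related to the protein that binds the selenocysteine insertion element, had log2 changes with 1,25D of 0.25 (SE 0.12, adjusted p = 0.878) on the rescue diet and 0.24 (SE 0.08, adjusted p = 0.243) over both diets.

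Of 8 genes for selenoprotein P receptors and selenium handling 7 were tested and limma called 0, with 2 at an unadjusted p under 0.05 on each diet, 1 over both diets and 0 for the diets under vehicle. Selenbp1, a selenium-binding protein, had a log2 change with 1,25D of -0.42 (SE 0.12, adjusted p = 0.469) on the rescue diet and of 0.31 (SE 0.12, adjusted p = 0.272) on the normal diet, and it differed by 0.24 (SE 0.12, adjusted p = 0.715) between the diets under vehicle. Lrp1, a broad endocytic receptor, had a log2 change of -0.24 (SE 0.09, adjusted p = 0.248) over both diets. Of 12 genes of glutathione synthesis and recycling limma called 0, with 4 at an unadjusted p under 0.05 on the normal diet, all higher, 2 on the rescue diet, 3 over both diets and 0 for the diets under vehicle. Ggt1, which splits extracellular glutathione, had the smallest p there, with a log2 change of 1.25 (SE 0.39, adjusted p = 0.109). Oplah, which recycles glutathione's glutamate, had a log2 change of -0.54 (SE 0.15, adjusted p = 0.315) with 1,25D on the rescue diet. Gss, glutathione synthetase, had one of 0.28 (SE 0.11, adjusted p = 0.342) over both diets and differed by 0.32 (SE 0.16, adjusted p = 0.703) between the diets under vehicle. For these lists the shares of all genes with an unadjusted p under 0.05 were again 12.0% on the normal diet, 4.83% on the rescue diet, 9.78% over both diets and 7.18% under vehicle. Of 8 genes of iodothyronine handling, in which Dio1 acts, limma called 0, with 1 at an unadjusted p under 0.05 on the normal diet and 0 in the other 3 comparisons. Slc16a10, an amino acid and thyroid hormone transporter, had a log2 change of 0.36 (SE 0.16, adjusted p = 0.331) with 1,25D on the normal diet. The thyroid hormone transporter Slco1c1 had a log2 change of 0.51 (SE 0.29, adjusted p = 0.878) on the rescue diet. Its level was also near the pseudocount, with means of 0.902 RPKM in rescue 1,25D and 0.45 RPKM in rescue vehicle libraries. The receptor Thrb had a log2 change of -0.19 (SE 0.10, adjusted p = 0.542) over both diets, and the receptor Thra a diet difference under vehicle of 0.33 (SE 0.19, adjusted p = 0.728). The glutathione peroxidases without selenium, Gpx7 and Gpx8, were the 2 of 4 listed that could be tested, with 0 at an unadjusted p under 0.05 and adjusted p-values of at least 0.867 in limma.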

How the data were processed

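RPKM values for 24 libraries, in a table each, were used as the authors deposited them (unit per the file headers). The submitters' processing notes list TopHat and build mm9; a version or a quantifying program is not given in the sources. Libraries were directional and depleted of ribosomal RNA, per the labels' protocols. Each table held 30795 entries for 25410 symbols, and 3470 symbols had several entries, which were summed. Relative depth came from the steps between low values of 1244 entries; 87.3% of 276 library pairs matched within 0.05 on the log2 scale. The absolute depth is unknown, so no counting intervals are given.

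Values were tested as log2(RPKM + 0.5) with limma 3.58.1 (R 4.3.3), two-sided, with an intensity trend, for the 20006 genes with 0.5 RPKM or more in at least 6 libraries. All 24 libraries entered a single fit with a mean for each group and 20 residual degrees of freedom, and p-values were adjusted by Benjamini-Hochberg over all genes tested, with a threshold of 0.05. The log2 scale with its pseudocount understates changes of low genes. The script was tested on simulated data. Alternatives were other pseudocounts, filters, scalings and library weights, a replicate block, the compared libraries alone, the highest row in place of the sum, and leaving out libraries. Members and lists were chosen with earlier results of these data known. All members are named, and of each list every called gene and the gene with the smallest p in each tested comparison, with up to 4 genes a list; the 5 genes most like Sepp1 were chosen by Pearson's r. Of 85 list positions 83 were found, some under older symbols through RefSeq synonyms. The selenocysteine codons were read from GENCODE M21 transcripts (GRCm38) with Python 3.11.15, and no coordinates are given because the builds differ.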

Additional observations from a re-analysis of the deposited data

Results flagged for a closer look

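In 8 of the 40 sets of 6 libraries (10 genes in 4 groups), 1 library stood far from the others by Dixon's criterion, which chance alone would flag in about 1 set in 20. Sepp1 was high in rescue 1,25D replicate 4, at 315 RPKM, and low in normal 1,25D replicate 1, at 244 RPKM. Gpx2 was high in rescue vehicle replicate 6, at 69.0 RPKM. Gpx3 was high in rescue 1,25D replicate 5, at 18.3 RPKM, and low in normal vehicle replicate 6, at 6.62 RPKM. Txnrd1 was high in rescue 1,25D replicate 6, at 176 RPKM. Sepw1 was high in rescue vehicle replicate 1, at 4.18 RPKM, and low in normal vehicle replicate 6, at 0.649 RPKM, the library with the greatest relative depth.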

How the results depend on the processing

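The diet difference of Sepp1 after 1,25D, -1.87 on the log2 scale, lay between -2.12 and -1.75 when single libraries were left out and between -2.12 and -1.59 under the other settings. Leaving out the 5 libraries that hold Sepp1 in 1 row was chosen after seeing the data, and gave -2.11. The difference between the diets' 1,25D effects on Sepp1, -1.73, lay between -1.98 and -1.54 and between -2.06 and -1.45. For 1,25D on the normal diet, the number of members called was 1 (Gpx4) with only the libraries of the groups compared and 0 to 2 when single libraries were left out. Gpx4 was called without normal vehicle replicate 3 (adjusted p = 0.0285) or 4 (0.0467), and Gpx4 (0.037) and Txnrd1 (0.0235) without rescue 1,25D replicate 6; Txnrd2 was called without normal vehicle replicate 5 (0.0456). The other 3 tested comparisons called 0 members under every setting run. The replicate numbers did not pair the libraries: 13 of 36 same-numbered pairs had deviations with r over 0.1 (range -0.44 to 0.48), and 3 libraries correlated best with their own number. With a replicate block, 0 members were called in each comparison, and 334 genes in all for 1,25D on the normal diet, against 368 without it. All-gene counts moved more: array weights gave 90 calls for 1,25D on the rescue diet (29 in the reported fit), 470 over both diets (256) and 1287 for the diets after 1,25D (2), and leaving out those 5 libraries gave 6, 112 and 7, with 131 on the normal diet (368). Cat was called in 18 of 24 fits without 1 library and 9 of 12 other settings, Abcc2 in 16 and 9, and Srxn1 in 13 and 8; the cause was not tested. Quantile normalization took the median log2 change of all genes for the diets after 1,25D to 0.01, against 0.12 as deposited. The low level of Txnrd2 and Sepw1, near 2 RPKM, and the still lower level of Dio2, Slco1c1 and Gpx7 limit what could be seen of them.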
